A study of Macaca mulatta with 43 samples.

Results

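AKR1D1 encodes steroid 5-beta-reductase, an aldo-keto reductase that reduces the double bond of 4-ene-3-keto steroids. It was measured here in medial prefrontal cortex (PFC) of 43 adult male rhesus macaques, with 1 Affymetrix Rhesus Macaque Genome Array per animal. The gene was represented by every probeset to which the platform's probe table gives AKR1D1 as the only symbol, which was 1 probeset (MmugDNA.7905.1.S1_at) of 24956 with exactly 1 symbol and of 52865 on the array. No other probeset of the gene was measured, so its values could not be checked against a different part of the transcript. AKR1D1 was selected on its ethanol minus control difference in these same arrays. That difference is therefore given below as a description, with no test.

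The RNA of each animal came from Brodmann areas 24, 25 and 32 pooled. The 32 ethanol-drinking animals learned to drink through schedule-induced polydipsia. For the following 1 year a 4% (w/v) ethanol solution stood beside their water for 22 hours of each day. The 11 controls drank no ethanol, and a daily portion of maltose dextran replaced its calories. Cohort 4 held 11 drinkers and no control, cohort 5 held 8 drinkers and 5 controls, cohort 7a held 8 drinkers and 4 controls, and cohort 7b held 5 drinkers and 2 controls. RNA of cohorts 4 and 5 was extracted with the RNeasy Mini Kit and that of cohorts 7a and 7b with the All Prep DNA/RNA/miRNA Universal Kit, so kit and cohort group cannot be told apart. Drinking was voluntary, and each cohort's animals were taken as separate samples.

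The enzyme is best known from liver, where it acts on intermediates of bile acid synthesis and on steroid hormones such as progesterone, testosterone and cortisol. Its 5-beta products have a bent ring system and are distinct from the 5-alpha products made by the SRD5A enzymes. Both kinds of product can be reduced further by 3-alpha-hydroxysteroid dehydrogenases of the AKR1C family, and some of the resulting steroids act on GABA-A receptors in brain.

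AKR1D1 stood at a low level in 6 animals and at a higher, rather even level in the other 37. Values are given in log2 RMA units, in which a difference of 1 is a doubling. The 5 controls of cohort 5 were at 7.82, 7.91, 7.98, 8.02 and 8.18. The 8 drinkers of cohort 5 ran from 7.83 to 8.35, with a median of 8.13, so both groups of this cohort covered nearly the same range. The 11 drinkers of cohort 4 ran from 7.80 to 8.30, with a median of 8.04, and lay inside the range of cohort 5 apart from the lowest animal. The 4 controls of cohort 7a were at 5.85, 6.06, 6.07 and 6.43. The 8 drinkers of cohort 7a ran from 7.28 to 8.05, with a median of 7.51, and none of them reached down to the controls of their cohort. The 2 controls of cohort 7b were at 5.76 and 6.21. The 5 drinkers of cohort 7b were at 7.86, 7.94, 7.95, 8.06 and 8.35, again all above their controls.

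**Figure D1:**
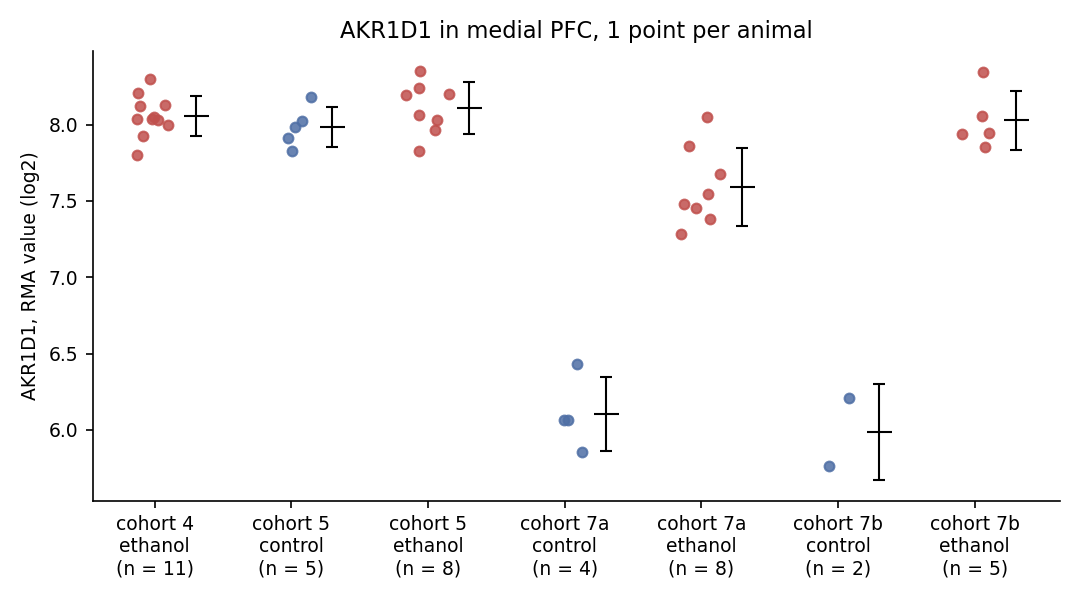
AKR1D1 RMA value (log2, y axis) for each animal by cohort and treatment (x axis), with group mean and SD beside the points. The 6 controls of cohorts 7a and 7b lie between 5.76 and 6.43, and all other animals lie between 7.28 and 8.35.

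In ascending order, the group means were 5.98 ± 0.31 in cohort 7b controls (SD, n = 2), 6.10 ± 0.24 in cohort 7a controls (SD, n = 4), 7.59 ± 0.26 in cohort 7a drinkers (SD, n = 8), 7.98 ± 0.13 in cohort 5 controls (SD, n = 5), 8.03 ± 0.19 in cohort 7b drinkers (SD, n = 5), 8.06 ± 0.13 in cohort 4 drinkers (SD, n = 11) and 8.11 ± 0.17 in cohort 5 drinkers (SD, n = 8). Between neighbours in this order, the step of 1.49 from the controls to the drinkers of cohort 7a was the only one whose ranges did not overlap. The next step, of 0.39 from cohort 7a drinkers to cohort 5 controls, exceeded the pooled SD of 0.20, and the remaining 4 steps were 0.03 to 0.12 and smaller than the pooled SD of their groups. In bulk tissue, fewer cells of a type and less RNA per cell cannot be told apart.

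The ethanol minus control difference, which chose the gene, was 1.01 over all animals (SE 0.19, a fold of 2.02). It was 0.13 in cohort 5 (SE 0.08, a fold of 1.09) and 1.68 in cohorts 7a and 7b with cohort as a block (SE 0.12, a fold of 3.21). The fit over all animals had treatment as its only term, with no adjustment for cohort or kit. With cohort as a block its AKR1D1 difference was 1.01 (SE 0.14). Cohort entered a fit only where stated. The array processing batches were not used here, so the part of processing batch in the low values of the 6 controls was not tested. Taken apart, cohort 7a gave 1.49 (SE 0.15) and cohort 7b gave 2.04 (SE 0.24). The difference over all animals thus came from cohorts 7a and 7b. Without their 6 controls it was 0.13 with cohort as a block (SE 0.10). Only cohort 5 then held controls, so this estimate repeats that of cohort 5 and is no separate check. Over all animals, 5.57% of the 23815 probesets tested were called higher and 10.4% lower in drinkers at an adjusted p under 0.05 in limma. In another fit, the median of the 24956 probesets with exactly 1 symbol was subtracted from each array. Then 1766 were called higher and 1239 lower, against 1326 and 2487 as deposited, and the AKR1D1 difference was 1.08. No fit subtracted the median over all 52865 probesets. In cohorts 7a and 7b, 13.3% were called higher and 26.5% lower. In cohort 5, 0.0042% were called, which was 1 probeset, of GPATCH2, at an ethanol minus control difference of 0.71 (SE 0.08, limma adjusted p = 0.00565), chosen for naming after its value was seen. At an unadjusted p under 0.05, 1133 probesets passed in cohort 5.

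The same separation was found for a small share of the array. In cohorts 7a and 7b every drinker lay above every control in 2.21% of probesets and below every control in 2.55%. The 6 controls lay below all other 37 animals in 1.46% of probesets, which were 348, and above them in 1.36%. Among those 348, the gap between the highest of the 6 controls and the lowest of the other animals had a median of 0.12, and for AKR1D1 it was 0.85. A gap at least that wide was present for 17 probesets of 17 genes, AKR1D1 included, and for 0 probesets in the opposite direction. The widest belonged to MAP6D1, a microtubule-associated protein, at 1.45, followed by the ubiquitin ligase HERC4 at 1.34 and AP4S1, a subunit of the adaptor complex AP-4, at 1.27. The 6 controls enter the difference that selected AKR1D1, so its own wide gap is no separate result.

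GAD2, which encodes a GABA-synthesizing enzyme and marks inhibitory neurons, was among these 17 genes, with a gap of 0.96. This held for 1 of its 2 tested probesets, and the other was not among the 17. At the probeset used, the controls in cohorts 7a and 7b lay between 6.50 and 7.14 and the drinkers there between 8.10 and 9.62. The partner enzyme GAD1 differed by -0.0014 in the same cohorts (SE 0.07, limma adjusted p = 0.991). Of 5 measured inhibitory neuron markers, 2 were called higher in these cohorts, GAD2 and LHX6, and 2 lower, PVALB and VIP, where 14.4% of all genes were called higher and 25.2% lower. Over all animals GAD2 and LHX6 were called higher and VIP lower, where 6.22% of all genes were called higher and 10.3% lower. HERC4 and GAD2 were named here after their values were seen.

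Between the controls of cohorts 7a and 7b and those of cohort 5, AKR1D1 differed by -1.92, where the median absolute difference over all probesets was 0.24 and 1.02% of probesets lay at least that far from 0. Between the drinkers of cohorts 7a and 7b and those of cohorts 4 and 5 it differed by -0.32, and 32.3% of probesets lay at least that far from 0. Counted in the direction of AKR1D1 alone, 0.147% of probesets had a value as low or lower in the controls and 12.2% in the drinkers. The controls enter the difference that selected AKR1D1, so its place in their shift was partly fixed by that choice.

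In cohorts 7a and 7b the array's RNA quality measure on actin had higher means in drinkers. That on GAPDH was higher in drinkers of cohort 7a but lower in those of cohort 7b. The actin value, that of the 3′ actin probeset minus that of the 5′ probeset, rises when transcripts are truncated. In cohorts 7a and 7b it was 0.75 to 0.87 in the 6 controls and 0.76 to 1.71 in the 13 drinkers. In cohort 5 it was 4.24 to 4.74 in controls and 4.36 to 4.95 in drinkers. Among the drinkers of cohorts 7a and 7b, 1 animal had an actin value inside the controls' range, and its AKR1D1 value was 8.06. For the same measure on GAPDH, 2 drinkers lay inside the controls' range of 0.95 to 1.15, with AKR1D1 at 7.48 and 7.95. The mean GAPDH value was 1.08 in controls and 1.27 in drinkers of cohort 7a. In cohort 7b it was 1.05 in controls and 0.91 in drinkers. With cohort as a block and the actin value as a covariate, the AKR1D1 difference over all animals was 0.82 (SE 0.14).

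**Figure D2:**
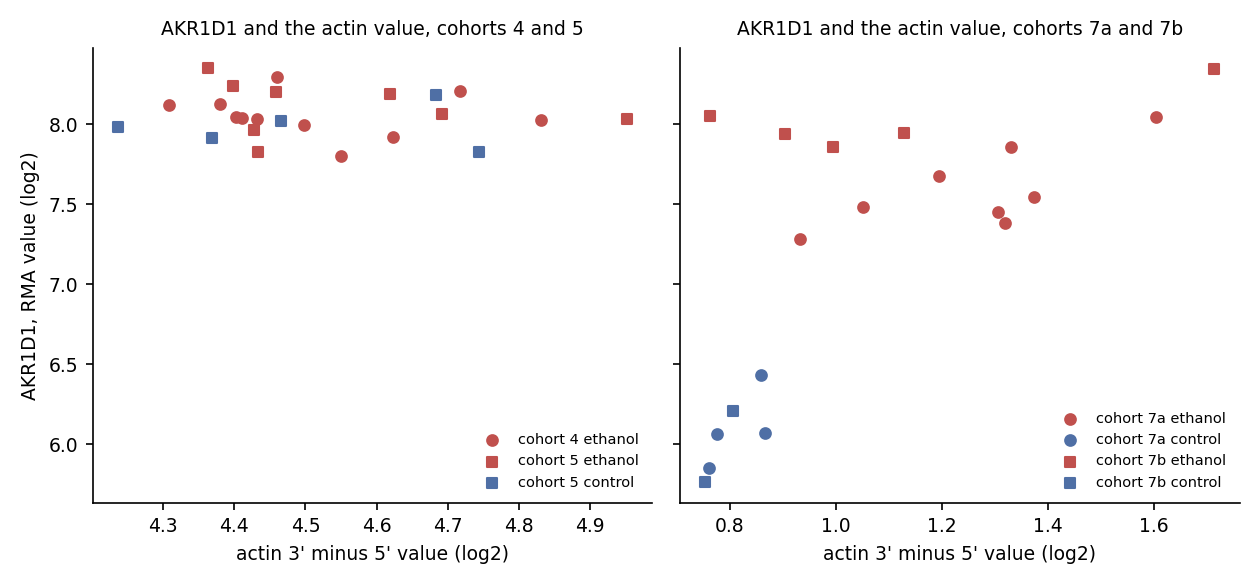
AKR1D1 RMA value (log2, y axis) plotted on the actin value (3′ minus 5′, log2, x axis, with its own range in each panel) for each animal of cohorts 4 and 5 and of cohorts 7a and 7b. The 6 controls in the right panel span 0.75 to 0.87 on the x axis and 5.76 to 6.43 on the y axis.

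Among the drinkers alone, which the choice of the gene did not separate, the actin value and AKR1D1 were compared within each cohort of at least 6 drinkers, 3 relations in all. In cohort 7a Pearson's r was 0.733 (n = 8, exact permutation p = 0.0334, adjusted p = 0.1003) and Spearman's rho was 0.667 (exact permutation p = 0.0831). Without the 2 animals farthest from the median actin value, r in cohort 7a was 0.119 (n = 6, exact permutation p = 0.897). Leaving these animals out also narrows the range of the actin value, so the drop cannot show whether the relation rested on them alone. In cohort 4 r was -0.151 (n = 11, permutation p = 0.655, adjusted p = 0.655) and rho was -0.391 (permutation p = 0.238), and in cohort 5 r was -0.231 (n = 8, exact permutation p = 0.568, adjusted p = 0.655) with rho at -0.429 (exact permutation p = 0.299). Without the 2 farthest animals r was -0.590 in cohort 4 (exact permutation p = 0.0906) and -0.0589 in cohort 5 (exact permutation p = 0.761).

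Drinkers of different cohorts were then compared, a contrast that took no part in the choice of the gene. AKR1D1 was lower in the drinkers of cohort 7a than in those of cohort 7b with a difference of -0.44 on the log2 scale (SE 0.11, adjusted p = 0.00511 by limma). The lowest 6 of the 8 drinkers of cohort 7a lay below all 5 drinkers of cohort 7b. A two-sided exact permutation test gave p = 0.0124, and p = 0.0249 after adjustment over both cohort contrasts. In a limma fit to these 13 animals alone the adjusted p was 0.0623, so the call rested on the spread pooled over all 7 groups. In this contrast 11.7% of all probesets were called, so a call was common, and the actin value differed by 0.16 (two-sided exact permutation test, p = 0.320). The GAPDH value had a mean of 1.27 in drinkers of cohort 7a (SD 0.13) and 0.91 in those of cohort 7b (SD 0.28). Its part in this contrast was not tested.

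Between the drinkers of cohorts 4 and 5, AKR1D1 differed by -0.05 (SE 0.09, limma adjusted p = 1.00; two-sided exact permutation test, p = 0.452). There 0% of probesets were called by limma and 895 passed at an unadjusted p under 0.05.

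The genes that followed AKR1D1 most closely were ranked by Pearson's r over the 43 animals, with each cohort's mean subtracted. A gene with several probesets entered by that of highest mean. These values are descriptions, with no test, since AKR1D1 was selected on its ethanol minus control difference in these same arrays. The 10 closest genes had r between 0.932 and 0.964, where the median over 13704 genes was -0.134 and 282 genes had at least 0.8. ZNF652, a zinc finger repressor of transcription, was the closest at 0.964. ACKR1, the Duffy chemokine receptor of venules and red cells, followed at 0.945 and LIMCH1, a protein of actin and myosin fibers, at 0.944. RBM33, an RNA-binding protein, had 0.940 and MAP6D1 had 0.939. EXOC4, a subunit of the exocyst, and CHKA, a choline kinase, both had 0.936. JMJD7, a lysyl hydroxylase, had 0.935, JARID2, a partner of Polycomb repressive complex members, had 0.933, and AP4S1 had 0.932.

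What these 10 genes shared with AKR1D1 was the place of the 6 controls. In all 10, each of these controls was outside the range of the other 37 animals. The ranking favors such genes, because AKR1D1 itself has these controls apart, so this is no separate result. Over all probesets, the 6 controls lay below the other 37 animals in 1.46% and above them in 1.36%. ZNF652 was 12.17 to 12.56 in the 6 controls and 13.37 to 13.81 in all others. ACKR1 was 5.28 to 6.22 in the 6 controls and 6.98 to 8.17 in all others. The drinker minus control difference of the 10 genes was 0.70 to 2.299 in cohorts 7a and 7b and -0.04 to 0.12 in cohort 5. When both cohort and treatment means were subtracted, the r of the 10 fell to values from 0.221 to 0.602, with a median of 0.440, and over the 32 drinkers it was 0.281 to 0.633. None of the 13704 genes reached 0.8 in either of these.

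**Figure D3:**
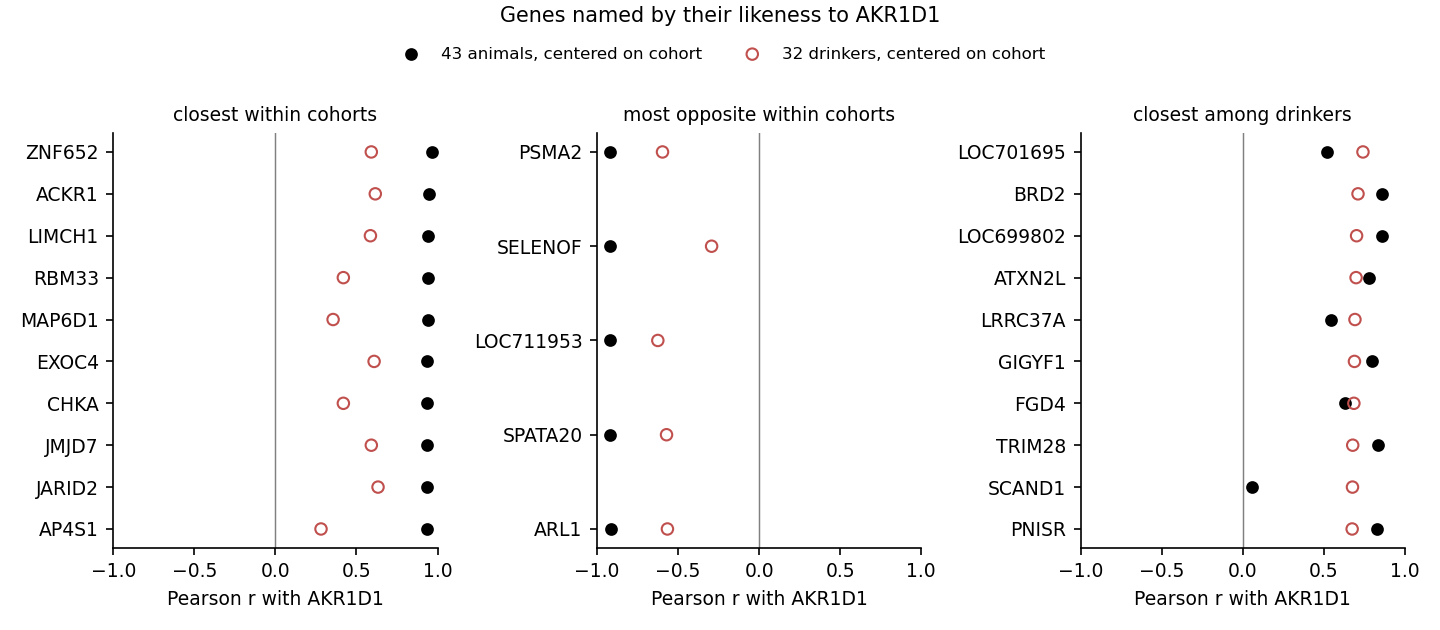
Pearson's r with AKR1D1 (x axis) for the 10 closest and 5 most opposite genes within cohorts and the 10 closest among drinkers (y axis), over 43 animals (filled) and over 32 drinkers (open). The 10 closest genes lie between 0.932 and 0.964 over 43 animals and between 0.281 and 0.633 over drinkers.

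Other probesets of the same genes followed AKR1D1 less closely. Of the 10 genes, 7 had further probesets that passed the filter, 13 in all, with r from -0.404 to 0.806, and 2 of them reached 0.8. For LIMCH1, 1 of 5 probesets had r = 0.944 and the other 4 lay between -0.404 and 0.167. The second probeset of ZNF652 had r = 0.589 and that of ACKR1 had 0.610. The ZNF652 probeset used carries the suffix _x_at, given by the manufacturer to sets whose probes may also match other transcripts.

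The 5 genes most opposite to AKR1D1 had r between -0.921 and -0.912. They were PSMA2, a subunit of the 20S proteasome, at -0.921, SELENOF, a selenoprotein of the endoplasmic reticulum, at -0.920, the unnamed locus LOC711953 at -0.920, SPATA20 at -0.918 and ARL1, a small GTPase of the Golgi, at -0.912. Their drinker minus control differences were -0.77 to -0.46 in cohorts 7a and 7b and -0.11 to 0.04 in cohort 5. PSMA2 lay between 10.24 and 10.91 in the 6 controls and between 9.63 and 10.21 in the other animals, but the 4 other PSMA2 probesets had r from -0.769 to 0.245. For ARL1 the 6 controls also lay apart, while for SELENOF, LOC711953 and SPATA20 they overlapped the other animals.

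Over the 32 drinkers alone, each centered on its cohort, the ranking was another, and 0 of its 10 closest genes were among the 10 above. The highest r was 0.742, for the unnamed locus LOC701695, followed by BRD2, a bromodomain protein of acetylated chromatin, at 0.712 and the locus LOC699802 at 0.703. ATXN2L, an RNA-binding relative of ataxin-2, had 0.700, LRRC37A 0.693, GIGYF1, which acts in translational repression, 0.690, and FGD4, an exchange factor for the GTPase Cdc42, 0.686. TRIM28, a co-repressor of zinc finger proteins, had 0.679, SCAND1, a SCAN domain protein, 0.678, and PNISR, a nuclear protein rich in serine and arginine, 0.676. The genes were ranked on these same drinkers, so their r within each cohort is a description and no separate support. It was 0.320 to 0.783 in cohort 4, 0.360 to 0.937 in cohort 5, 0.667 to 0.858 in cohort 7a and 0.283 to 0.978 in cohort 7b. When cohorts 4 and 5 were ranked alone, 0 of the 10 remained, and in cohorts 7a and 7b alone 2 remained. For 1 of the 10, LOC699802, the 6 controls lay apart from all other animals. The SCAND1 and BRD2 probesets carry the suffix _s_at, for sets shared by several transcripts, and of 9 further probesets of these 10 genes the highest r was 0.591.

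**Figure D4:**
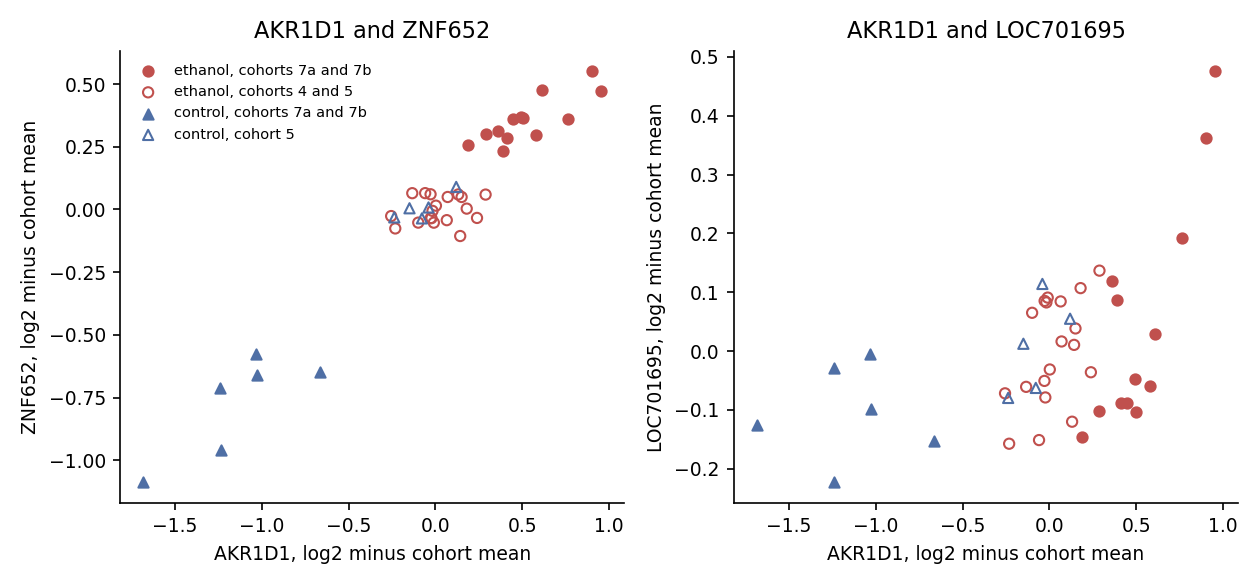
AKR1D1 (x axis) against ZNF652 and LOC701695 (y axes), all in log2 units minus the cohort mean, 1 point per animal. For ZNF652 the 6 controls of cohorts 7a and 7b sit apart at the lower left (r = 0.964 over 43 animals, 0.592 over drinkers), and for LOC701695 they do not continue the trend of the drinkers (r = 0.522 and 0.742).

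Other genes of steroid metabolism did not move like AKR1D1. In 5 lists of 81 genes, 47 had a probeset and 44 passed the filter. Over all animals, 1 of the 44 was called higher and 5 lower in drinkers (limma, adjusted p under 0.05 over all probesets), with a median difference of -0.04. Over all 13705 genes, 6.22% were called higher and 10.3% lower, with a median of -0.03. In cohorts 7a and 7b, 3 of the 44 were called higher and 12 lower, beside 14.4% and 25.2% of all genes. In cohort 5, 0 of the 44 were called. Without the 6 controls of cohorts 7a and 7b, 0 were called, with 746 of all probesets passing at an unadjusted p under 0.05. The differences in that fit also came from cohort 5 alone, so it is no separate check. None of the 44 had a difference in cohorts 7a and 7b beyond -0.67 or 0.31.

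The enzymes nearest to AKR1D1 in function were few on the array. Of 8 genes listed as 5-alpha reductases and 3-alpha-hydroxysteroid dehydrogenases, 2 were measured and 0 of them were called. AKR1C2, a 3-alpha-hydroxysteroid dehydrogenase whose close copies in the AKR1C family may share its probes, differed by 0.10 (SE 0.06, limma adjusted p = 0.223). SRD5A3, a member of the 5-alpha reductase family that acts in dolichol synthesis, differed by -0.04 (SE 0.06, limma adjusted p = 0.689). Of the other aldo-keto reductases, 5 of 11 were measured and 0 were called over all animals. SRD5A1, AKR1C1, AKR1C3, AKR1C4 and CYP27A1 had no probeset with that symbol alone.

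In the bile acid list, 6 of 16 genes were tested and 1 was called, where 6.22% of all genes were called higher and 10.3% lower. CYP46A1, the neuronal cholesterol 24-hydroxylase through which brain disposes of cholesterol, was higher in drinkers by 0.14 (SE 0.05, limma adjusted p = 0.0394). The call was lost when any of 5 animals was left out, 7a controls 26, 27 and 28 and 7b controls 37 and 38, and over all 43 omissions the difference was 0.11 to 0.17 and the limma adjusted p 0.0123 to 0.149. CYP46A1 lay between 10.53 and 10.96 in the controls of cohorts 7a and 7b and between 10.83 and 11.14 in their drinkers, so these groups overlapped. The difference was 0.28 in these cohorts and -0.03 in cohort 5. For hepatocyte markers, 4 of 9 were tested, and 1, APOA1, was called, lower in drinkers by -0.15 (SE 0.05, limma adjusted p = 0.0434). The share of all genes called lower was 10.3%. The defining liver genes ALB, CYP7A1 and HNF4A had no probeset with that symbol alone.

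In the list of steroid hormone synthesis and inactivation, 4 of 18 tested genes were called, all lower in drinkers, where 10.3% of all genes were called lower. FDX1, the electron donor of mitochondrial steroidogenic P450 enzymes, differed by -0.24 (SE 0.06, limma adjusted p = 0.00795). FDX1 was 9.06 to 9.49 in the controls of cohorts 7a and 7b and 8.34 to 8.97 in their drinkers, groups that did not overlap. In these cohorts every drinker lay below every control in 2.55% of all probesets. The other 2 FDX1 probesets differed by -0.32 (limma adjusted p = 0.0198) and -0.03 (limma adjusted p = 0.725). STAR, which brings cholesterol into mitochondria, differed by -0.23 (SE 0.07, limma adjusted p = 0.0155), and HSD17B8, a 17-beta-hydroxysteroid dehydrogenase, by -0.23 (SE 0.08, limma adjusted p = 0.0451). CYP11B1, an 11-beta-hydroxylase with the near-identical copy CYP11B2, differed by -0.17 (SE 0.06, limma adjusted p = 0.0417), and its other probeset by 0.12 (limma adjusted p = 0.110). Of 13 tested receptors of steroids and bile acids, NR1H3, the oxysterol receptor LXR-alpha, was called, at -0.15 (SE 0.05, limma adjusted p = 0.0460), beside the same 10.3% of all genes. With each of the 43 animals left out in turn, the call was lost for 0 omissions for FDX1, 2 for STAR (7a control 28 and 7b control 38), 13 for CYP11B1, 18 for HSD17B8 and 25 for NR1H3, always with the difference below 0. After each array's median over the probesets with exactly 1 symbol was subtracted, none of these 5 lower calls remained. CYP46A1 was then called at 0.21 (limma adjusted p = 0.0414), and STARD3, a cholesterol transfer protein of endosomes, at 0.19 (limma adjusted p = 0.0130).

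The ethanol difference in cohorts 7a and 7b was tested against that in cohort 5 for these genes. It differed for 23.9% of all probesets and for 10 of the 44 steroid genes, among them FDX1 by -0.51 (SE 0.11, limma adjusted p = 0.00179) and HSD17B8 by -0.67 (SE 0.11, limma adjusted p = 0.00011). FDX1 and HSD17B8 had been named for calls that rested on cohorts 7a and 7b, so their outcome was partly fixed by that choice. For AKR1C2 the difference of differences was 0.10 (SE 0.11, limma adjusted p = 0.536). With cohort as a block and the actin value as a covariate, 1 of the 44 was called higher and 1 lower, where 7.89% and 8.49% of all genes were. They were FDX1 at -0.17 (SE 0.06, limma adjusted p = 0.0461) and NR3C1, the glucocorticoid receptor, at 0.18 (SE 0.05, limma adjusted p = 0.0193).

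**Figure D5:**
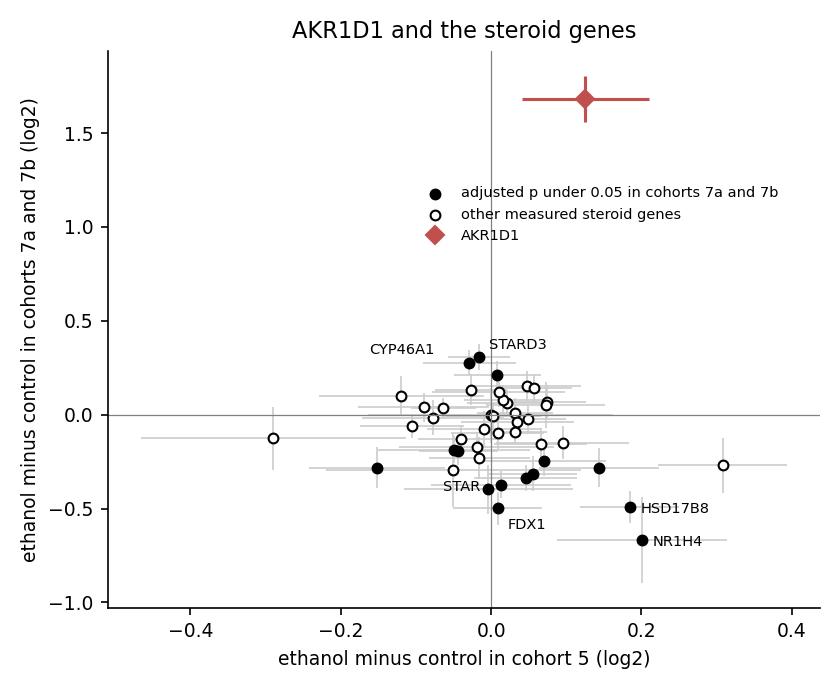
Ethanol minus control difference (log2) in cohort 5 (x axis) and in cohorts 7a and 7b (y axis) for AKR1D1 and 44 steroid genes, with SE as bars. AKR1D1 lies at 0.13 and 1.68, and the steroid genes lie between -0.67 and 0.31 on the y axis.

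Markers of the cells that cortex holds were present. GFAP of astrocytes had a mean of 12.31 in drinkers and 12.07 in controls, and the myelin gene MBP had 12.61 and 12.73. Of 7 measured microglia markers, 3 were called lower in drinkers over all animals, where 10.3% of all genes were. These were TYROBP at -0.28 (SE 0.08, limma adjusted p = 0.0122), P2RY12 at -0.49 (SE 0.14, limma adjusted p = 0.0175) and AIF1 at -0.42 (SE 0.10, limma adjusted p = 0.00443). In cohorts 7a and 7b, 4 of the 7 were called lower, with CX3CR1 added, where 25.2% of all genes were, while CSF1R differed by 0.08, ITGAM by -0.21 and C1QB by -0.16 (limma adjusted p = 0.521, 0.235 and 0.119). The mean level of the 7 was 7.78 to 8.25 in the controls of cohorts 7a and 7b, 7.27 to 7.69 in their drinkers, 7.43 to 7.59 in controls of cohort 5 and 7.28 to 7.79 in its drinkers. Of 4 tested ependyma and choroid plexus markers, 6 endothelial and 2 mural markers, 0 were called over all animals. Their part in the AKR1D1 values was not tested.

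The nearest tested genes on the chromosome did not share the pattern of AKR1D1, and none of them lay directly beside it. In the RefSeq annotation of assembly T2T-MMU8v2.0, the nearest genes with a probeset were CREB3L2, 2 annotated genes before it, PTN, 5 before, LOC710138, 6 after, and SVOPL, 10 after, whose probeset did not pass the filter. CREB3L2, a transcription factor of the secretory pathway, differed by -0.05 between drinkers and controls (SE 0.06, limma adjusted p = 0.559). PTN, which encodes the growth factor pleiotrophin, differed by 0.05 (SE 0.06, limma adjusted p = 0.635), with its other 2 probesets at -0.02 and -0.09. LOC710138 differed by -0.06 (SE 0.05, limma adjusted p = 0.438). In cohorts 7a and 7b, none of these was called either.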

How the data were processed

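The authors corrected the background of the arrays and quantile normalized them in 1 group by RMA (affy package); versions are not given in the sources used here. The deposited values are log2 RMA values, not adjusted for processing batch, and the batches of the methods were not used here. Symbols came from the platform's probe table, and 27535 probesets had none. A probeset was left out when 80% of arrays or more had it under 3.5, which kept 23815 probesets of 13705 genes. Groups came from the sample labels. Models were fitted to all probesets with limma 3.58.1 (R 4.3.3), with treatment as the factor and Benjamini-Hochberg adjustment, and were tested on simulated data. Permutation tests used scipy 1.17.1 and enumerated every arrangement, apart from the correlations over 11 animals, which used 100000 resamples. The number of arrays, above all of controls, limits the precision. The gene and all lists were chosen with earlier results of these data known. Genes were named by rule: the 10 closest and 5 most opposite within cohorts, the 10 closest among drinkers, up to 4 called genes per steroid list with SRD5A1, the AKR1C genes, CYP27A1 and CYP46A1, and 2 chromosomal neighbors on each side; exceptions are stated. The fit without 6 controls, the test of cohorts 7a and 7b against cohort 5, the gap counts and the values inside the controls' actin or GAPDH range were added after seeing the data.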

Additional observations from a re-analysis of the deposited data

Results flagged for a closer look

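In groups of 4 to 10 animals, the highest or lowest animal was set against the others by Dixon's ratio for every gene named by the rule. Of 180 groups, 11 were flagged; chance flags about 5% of groups. AKR1D1 was not flagged in any group. In cohort 7a drinkers, replicate 33 was the highest for FGD4 (9.93), LRRC37A (4.89) and SCAND1 (10.27), and replicate 34 was the lowest for HSD17B8 (7.50). In cohort 7a controls, replicate 27 was the highest for FDX1 (9.26) and the lowest for GIGYF1 (6.97), replicate 26 was the highest for NR1H3 (4.64) and replicate 25 the lowest for LOC710138 (6.36). In cohort 5 controls, replicate 14 was the highest for FDX1 (8.93) and replicate 12 for SELENOF (11.33). In cohort 7b drinkers, replicate 42 was the highest for LOC701695 (8.45).

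For 5 of the named steroid genes, the ethanol minus control difference in cohorts 7a and 7b differed from that in cohort 5 by a limma test of the difference itself. The same test called 23.9% of all probesets. These 5 genes had been called over all animals, and those calls rested on cohorts 7a and 7b. The outcome was therefore partly fixed by the choice of genes. It was lower in cohorts 7a and 7b by -0.38 for CYP11B1 (SE 0.10, adjusted p = 0.00561), -0.51 for FDX1 (SE 0.11, adjusted p = 0.00179), -0.67 for HSD17B8 (SE 0.11, adjusted p = 0.00011) and -0.39 for STAR (SE 0.12, adjusted p = 0.0142), and higher by 0.31 for CYP46A1 (SE 0.09, adjusted p = 0.0152).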

How the results depend on the processing

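The AKR1D1 difference between drinkers and controls stayed above 0 under every alternative. It moved from 1.01 to 1.68 in cohorts 7a and 7b alone and to 0.13 in cohort 5 alone and, as chosen after seeing the data, to 0.13 without the 6 controls of cohorts 7a and 7b. Without these controls the differences come from cohort 5 alone, so that fit and its counts below are no separate check. With 1 animal left out the AKR1D1 difference was 0.89 to 1.14. The number of probesets called moved from 3813 to 7890 with cohort as a block, 7008 without cohort 4, 9462 in cohorts 7a and 7b, 1 in cohort 5 and 0 without the 6 controls. With 1 animal left out it was 1677 to 4974, and it fell by over 1.5 times without 7b control 37 (1677), 7b control 38 (1711), 7a control 27 (2449) and 7a control 28 (2507). Steroid genes called moved from 6 to 11 with cohort as a block, 2 with the actin value added and 15 in cohorts 7a and 7b. They were 0 in cohort 5, 2 after subtraction of array medians over probesets with exactly 1 symbol, and 0 without the 6 controls. With 1 animal left out they were 1 to 7: 1 without 7a control 28 or 7b control 38, 2 without 7a control 26 or 27, and 3 without 7b control 37, 7a control 25 or cohort 4 drinkers 1 or 3. The comparison of drinkers of cohorts 7a and 7b was -0.44 and past the threshold, and missed it in the fit of those drinkers alone (-0.44, adjusted p = 0.0623); with 1 animal left out it was -0.50 to -0.36, with adjusted p from 0.000869 to 0.0292. Drinkers of cohorts 4 and 5 differed by -0.09 to -0.02 with 1 animal left out, never past the threshold. Of the 10 closest genes within cohorts, 5 remained by Spearman's rho, 6 in cohorts 7a and 7b, 1 after centering on cohort and treatment, 1 without these cohorts, and 7 to 10 with 1 animal left out. Of the 10 closest among drinkers, 3 remained by Spearman's rho, 0 in cohorts 4 and 5, 2 in cohorts 7a and 7b, and 2 to 10 with 1 animal left out: 2 without 7a drinker 33, 5 without cohort 5 drinker 19 or 7b drinker 43, and 6 without cohort 4 drinker 8 or 7b drinkers 40 or 42. The causes of these shifts were not tested. No paired analysis was possible because the labels give each animal its own number.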
